A study of Mus musculus with 10 samples.

Results

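Keratins are the intermediate filament proteins of epithelial cells, and 52 keratin genes of the 19556 genes on the array are described here. They were chosen by symbol: a probe set (a group of array probes for 1 transcript) counted if its only gene symbol was KRT followed by a digit, which left out the keratin-associated proteins, and of several such probe sets the one with the highest average signal stood for the gene. No measured difference between groups entered this rule, although the keratins were chosen as a subject with earlier results of these data known. The 78 single-symbol keratin probe sets gave 4 luminal, 3 basal, 15 squamous and 20 hair keratins, the 2 other simple keratins KRT20 and KRT23, 6 pseudogenes, the antisense gene KRT10-AS1 and the unclassed KRT222. KRT17, KRT6A, KRT6B and KRT6C had no such probe set and are not analysed here.

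The tumors were human breast cancers positive for the estrogen receptor, grown in female nu/nu mice that were 20 weeks old. All mice received an estrogen pellet, which had been out for 1 week in the mice called withdrawn. Axillary lymph node metastases came from mice 6, 11 and 14 with estrogen and from mice 9, 10 and 19 after withdrawal, and primary mammary gland tumors came from mice 11 and 14 with estrogen and from mice 10 and 19 after withdrawal. Cells were laser captured from frozen sections and their RNA was amplified by PCR. The name of the tumor cells is not given in the sources used here. Mice of the nu/nu strain lack a thymus and mature T cells but keep other leukocytes, fibroblasts and vessels, whose RNA a human array reads only by cross-hybridization. Values are log2 signals, so a difference of 1 is a 2-fold difference. In the sentences below, the values of each group follow the order of the mice given here.

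A keratin filament is built from 1 acidic type I and 1 basic type II chain, and a cell's set of chains follows its kind of epithelium. Luminal cells of the mammary gland make KRT8, KRT18, KRT19 and KRT7, while basal and myoepithelial cells make KRT5, KRT14 and KRT17. Stratified squamous epithelia replace the basal chains with pairs such as KRT1 and KRT10 in epidermis or KRT4 and KRT13 in mucosa as their cells mature, and hair keratins belong to the hair follicle.

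The array medians lay between 2.70 and 2.83, but the highest signals did not match across groups: the 99th percentile was 9.44 and 10.04 on the 2 estrogen primary tumor arrays and 11.38 to 11.67 on the other 8. With the deposited values, strong signals therefore read lower on those 2 arrays. In primary tumors, the median estrogen minus withdrawn difference was −1.90 for genes averaging over 10 and 0.11 for genes averaging below 4. Differences are given for the deposited values and, where they differ, after quantile normalization between arrays, which gives every array the same distribution. The mean of 18 hybridization control probe sets was 12.04 to 12.47 on the lymph node arrays of mice 11 (estrogen) and 19 (withdrawn) and on both withdrawn primary tumor arrays, and 9.47 to 10.59 on the other 6. The 3′ minus 5′ difference of the GAPDH control was 3.15 and 3.73 on the estrogen primary tumor arrays, 4.62 and 5.87 on the withdrawn primary tumor arrays, and 3.84 to 4.39 in lymph nodes. Of the leukocyte markers 11 of 13 measured passed the filter on low signals, with list means of 2.85 to 3.41 on all arrays, near the array medians, and PTPRC and LYZ, which define leukocytes and macrophages, fell below it. CD79A, a B cell marker, read 5.19 to 6.52 in the lymph nodes and 3.73 to 4.95 in the primary tumors. Of the same list, CD79B and MS4A1 did not follow CD79A. CD79B read 2.605 to 2.956 in the lymph nodes and 2.88 to 3.54 in the primary tumors. MS4A1 read 2.08 to 2.74 and 2.12 to 2.57. The luminal cell markers, which include EPCAM and CDH1, had list means of 7.50 and 7.60 with estrogen and 9.16 to 9.38 after withdrawal in primary tumors, and of 8.50 to 8.96 and 9.60 to 9.82 in lymph nodes. Stromal markers (11 of 15 measured passed) had list means of 3.39 to 3.90 on all arrays. The part of these array properties and of other cells in the keratin results was not tested, except where a value is given.

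The plot of all members by class and array shows which keratins carried signal. Of the 52 keratins, 48 passed the filter (a mean over the 10 arrays at or above 2.311, the 25th percentile of all probe sets) and were tested. KRT12, KRT27, KRT31 and KRT40 did not pass. A mean at or above the 75th percentile of all probe sets, 4.25, was reached by 16 keratins: all 4 luminal keratins, KRT5 and KRT15 among the basal, KRT4, KRT10, KRT13, KRT16 and KRT80 among the squamous, KRT33A and KRT83 among the hair keratins, and KRT23, KRT10-AS1 and the pseudogene KRT8P12. The range over the 10 arrays was 2 or more for 7 of the 14 squamous keratins tested and for none of the 17 hair keratins, of which 11 varied by less than 1. Over all 48 keratins the median range was 1.13, against 1.60 for all 17170 genes tested.

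**Figure D1:**
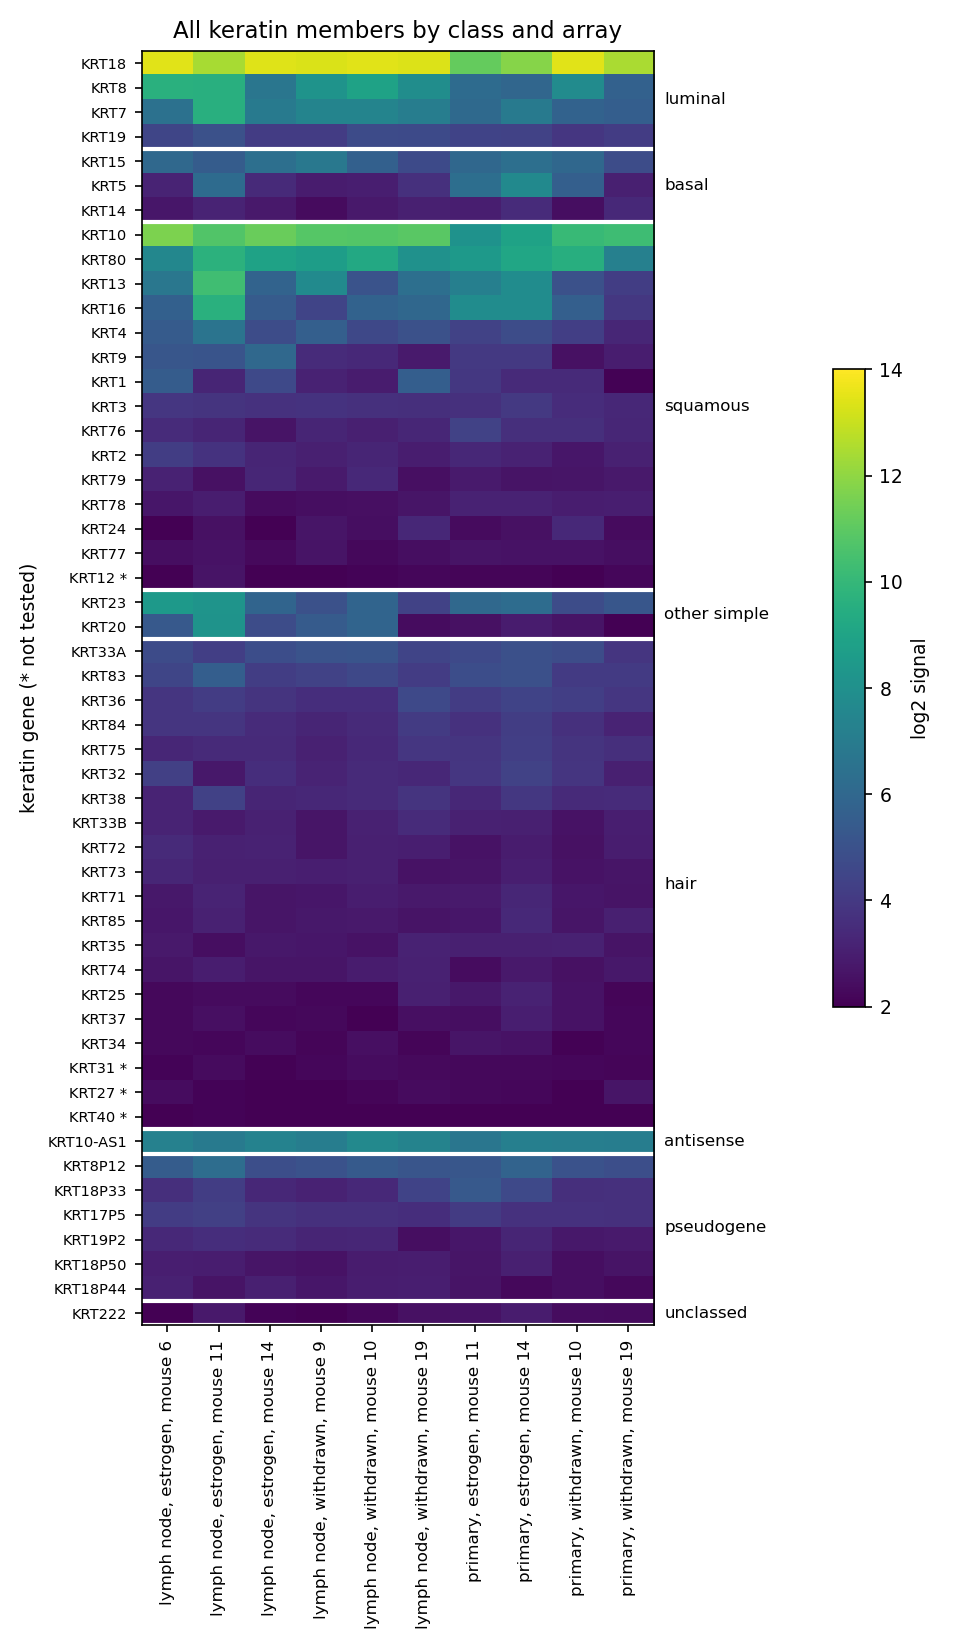
Log2 signal (color) of the 52 keratins on the 10 arrays; rows are genes by class, columns are arrays by group and mouse, and an asterisk marks the 4 genes that did not pass the filter. In the deposited values shown, KRT18 and KRT10 read lower on the 2 estrogen primary tumor arrays than on the other arrays, and the hair keratins vary little.

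Among the luminal keratins, KRT18, the type I chain that pairs with KRT8 in simple epithelia, gave one of the strongest signals on every array, between the 99.57th and 99.91st percentile of its array. KRT18 read 13.47, 12.42 and 13.43 in the lymph nodes with estrogen, 13.31, 13.46 and 13.38 after withdrawal, 11.18 and 11.82 in the primary tumors with estrogen and 13.45 and 12.45 after withdrawal. The 2 estrogen primary tumors were thus below the other 8 arrays. After quantile normalization the same 2 arrays read 12.80 and 12.69 and overlapped with the lymph nodes (12.18 to 13.22). A probe set shared by KRT18 and 4 of its pseudogenes, no member here, followed the same order, with means of 13.17 ± 0.22 (SD, n = 3) and 11.35 ± 0.83 (SD, n = 2) in lymph nodes and primary tumors with estrogen.

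KRT8, the type II partner of KRT18, read 9.61, 9.56 and 6.72 in the lymph nodes with estrogen, 8.16, 8.91 and 7.89 after withdrawal, 6.21 and 5.97 in the primary tumors with estrogen and 7.79 and 5.73 after withdrawal. The lymph nodes read higher than the primary tumors in both pellet states without overlap, and the lymph node of mouse 14 was the lowest of its group. After quantile normalization that lymph node read 6.42, below the estrogen primary tumors (6.79 and 6.57), and the groups with estrogen overlapped. KRT7, a type II keratin of ducts and glands, read 6.48, 9.55 and 6.91, then 7.41, 7.39 and 7.07 in the 2 lymph node groups, and 6.09 and 6.94, then 5.79 and 5.60 in the 2 primary tumor groups. The lymph node of mouse 11 stood 2.64 above both others of its group.

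The single-symbol probe set of KRT19, a type I keratin without a fixed partner, read between 3.90 and 4.97 on all arrays. A probe set annotated to both KRT19 and JUP (plakoglobin) read 13.44, 13.22 and 13.28 in the lymph nodes with estrogen, 13.54, 13.40 and 13.33 after withdrawal, 11.07 and 12.01 in the primary tumors with estrogen and 13.38 and 12.50 after withdrawal. Which of the genes that probe set reads was not settled by its annotation, so the low KRT19 values are those of 1 probe set and not a level of the gene. The single-symbol probe set of JUP read 6.99 to 10.42 on the 10 arrays, and what the shared probe set reads was not tested. The luminal counts and medians below use the single-symbol KRT19 probe set.

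**Figure D2:**
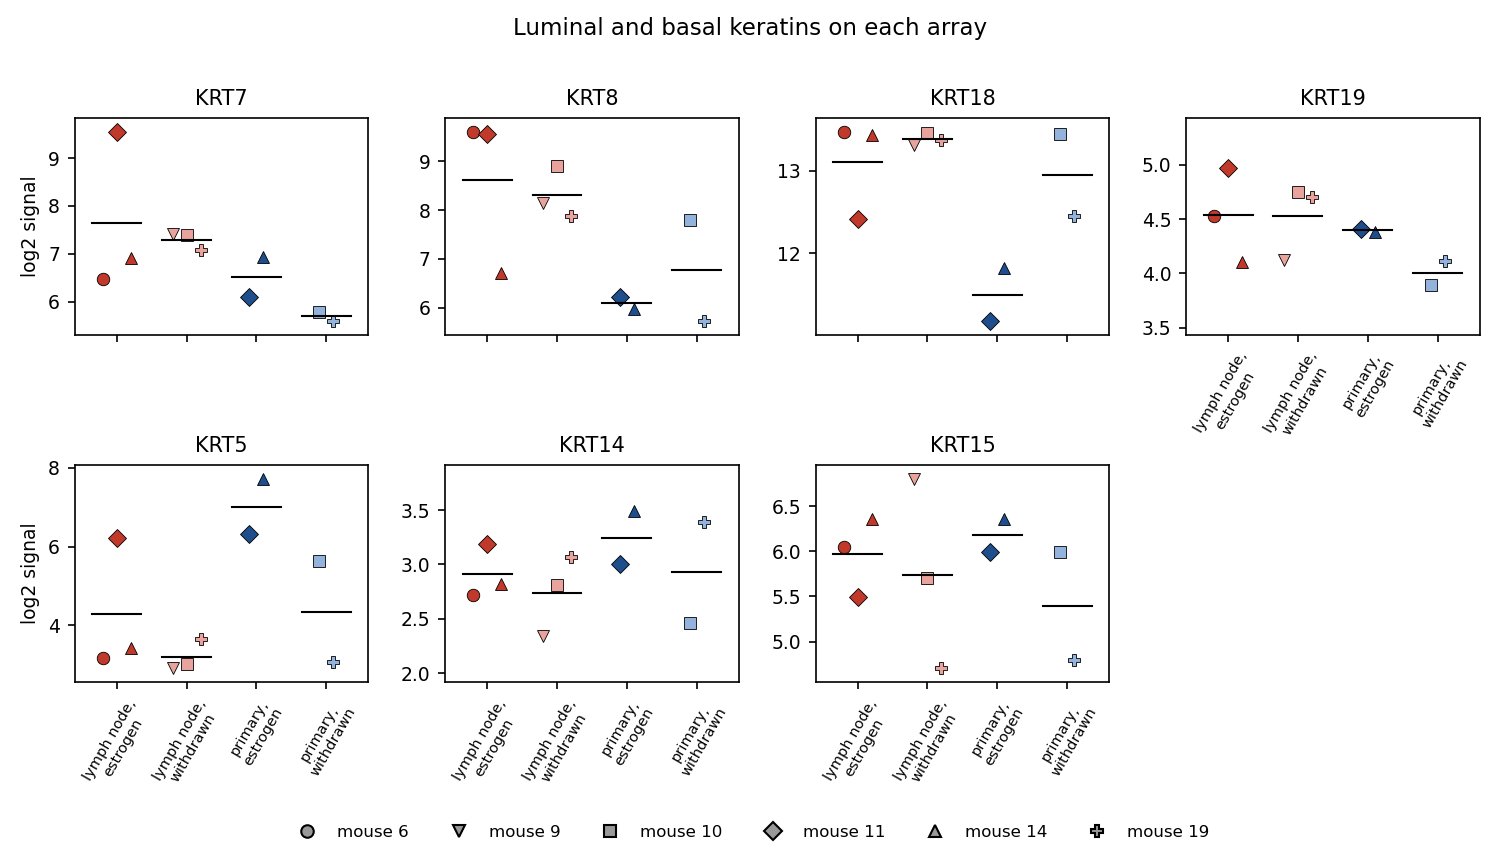
Log2 signal of the 4 luminal keratins (top) and the 3 basal keratins measured (bottom) on each array, by group; a point is 1 array, its shape the mouse, a bar the group mean, and each panel has its own axis. In the deposited values shown, KRT18 was lowest and KRT5 high on the 2 estrogen primary tumor arrays, and KRT7 stood out in the lymph node of mouse 11.

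Of the basal keratins KRT5 varied most over the arrays. KRT5, the type II chain of basal cells, read 3.18, 6.22 and 3.44 in the lymph nodes with estrogen, 2.92, 3.02 and 3.65 after withdrawal, 6.32 and 7.72 in the primary tumors with estrogen and 5.64 and 3.06 after withdrawal. Signals above 5 were thus found on 4 arrays: both estrogen primary tumors, the withdrawn primary tumor of mouse 10 and the lymph node of mouse 11. KRT14, its type I partner, read between 2.34 and 3.49 on all arrays and did not follow KRT5 in the withdrawn primary tumors, where it read 2.46 and 3.39. KRT15, another type I chain of the basal layer, read 6.05, 5.49 and 6.36, then 6.80, 5.70 and 4.71 in lymph nodes, and 5.99 and 6.36, then 5.99 and 4.79 in primary tumors. The pellet states overlapped in lymph nodes and were all but level at the nearest pair of primary tumors (5.992 and 5.9903).

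Among the squamous keratins, KRT10, the type I chain of the suprabasal epidermis, gave the highest signals. KRT10 read 11.63, 10.75 and 11.27 in the lymph nodes with estrogen, 10.84, 10.79 and 10.95 after withdrawal, 8.12 and 8.89 in the primary tumors with estrogen and 10.07 and 10.26 after withdrawal. Every lymph node was above every primary tumor, and the estrogen primary tumors were lowest. After quantile normalization the estrogen primary tumors read 9.29 and 10.00 and the withdrawn ones 9.72 and 9.99, so the pellet states overlapped. Every lymph node (10.37 to 11.23) was still above every primary tumor. KRT1, its usual type II partner, read 2.07 to 5.58 on the 10 arrays, with overlapping lymph node groups, and KRT10-AS1, the antisense gene, stayed between 6.69 and 7.64.

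KRT9, a type I keratin known from the epidermis of palms and soles, read 5.23, 5.13 and 6.07 in the lymph nodes with estrogen, 3.47, 3.39 and 2.88 after withdrawal, 3.99 and 3.97 in the primary tumors with estrogen and 2.52 and 2.94 after withdrawal. The estrogen arrays lay above the withdrawn arrays at both sites without overlap. KRT13, a mucosal type I keratin, read 6.77, 10.31 and 5.80, then 7.76, 5.06 and 6.40 in lymph nodes, and 7.20 and 7.85, then 4.98 and 4.19 in primary tumors. KRT16, a type I keratin of wounded and fast-renewing epidermis, read 5.68, 9.61 and 5.46, then 4.48, 5.77 and 6.00 in lymph nodes, and 7.81 and 7.82, then 5.65 and 3.96 in primary tumors. Both separated the primary tumors by pellet state and both were highest in the lymph node of mouse 11.

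KRT4, the mucosal type II partner of KRT13, read 5.42, 6.61 and 4.79, then 5.62, 4.58 and 4.99 in lymph nodes, and 4.34 and 4.78, then 4.24 and 3.30 in primary tumors. KRT80, a type II keratin found in many epithelia, read between 7.21 and 9.69 with all groups overlapping. After quantile normalization the estrogen primary tumors (9.89 and 10.24) lay above the withdrawn ones (9.19 and 7.09) and above the estrogen lymph nodes, with differences of 1.95 and −1.57 in place of 0.45 and −0.08 that were not called (adjusted p = 0.215 and 0.453).

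Of the other simple keratins, KRT20, known from gut and urothelium, read 5.36, 8.18 and 4.80 in the lymph nodes with estrogen, 5.44, 5.88 and 2.38 after withdrawal, and 1.80 to 2.92 in the 4 primary tumors. It was near or below the array median in every primary tumor and in the withdrawn lymph node of mouse 19. KRT23, a type I chain of simple epithelia, read 8.43, 8.20 and 5.89 in the lymph nodes with estrogen, 5.0, 5.86 and 4.36 after withdrawal, 6.04 and 6.24 in the primary tumors with estrogen and 4.81 and 5.21 after withdrawal. The 2 pellet states did not overlap at either site, although in lymph nodes the gap was between 5.89 and 5.86.

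**Figure D3:**
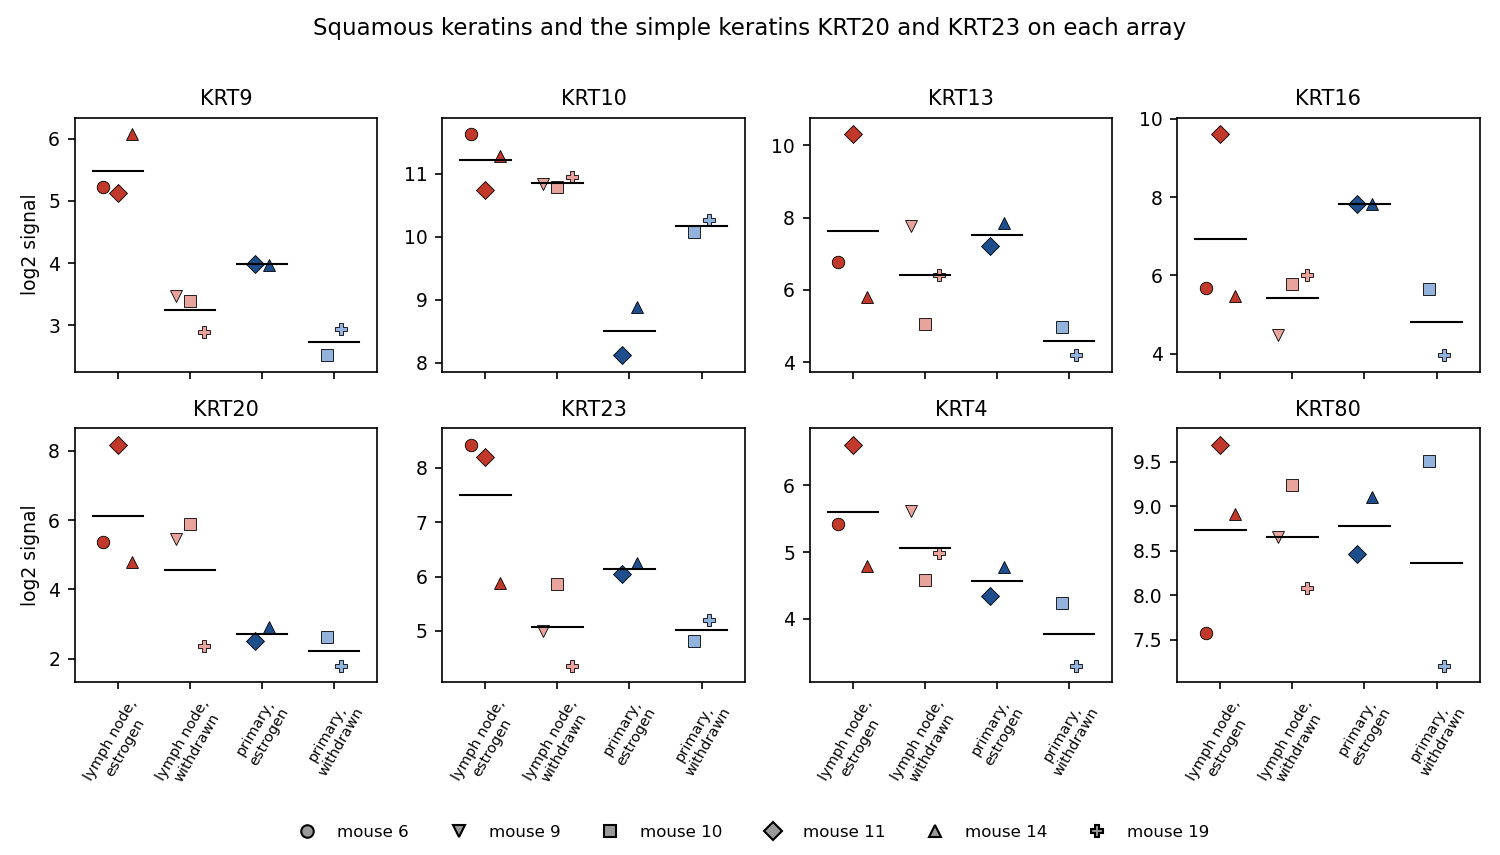
Log2 signal of 6 squamous keratins and of the simple keratins KRT20 and KRT23 on each array, by group; a point is 1 array, its shape the mouse, a bar the group mean, and each panel has its own axis. KRT9 read higher with estrogen at both sites without overlap, and KRT13, KRT16, KRT20 and KRT4 were highest in the lymph node of mouse 11.

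The first comparison asked how lymph node metastases differed between estrogen and its withdrawal. None of the 48 keratins was called, where a call is an adjusted p below 0.05 from limma, adjusted by Benjamini-Hochberg over every gene in the fit. The background was 0%: 0 of 17170 genes were called, and 1002 genes (5.84%) had an unadjusted p below 0.05, as did 3 keratins, KRT9, KRT23 and KRT2, all higher with estrogen. KRT9 differed by 2.23 ± 0.30 (SE, adjusted p = 0.151), with adjusted p-values of 0.0285 to 0.578 over the alternatives, and it was called only with the hybridization control mean as a covariate (2.26, adjusted p = 0.0285). Within the arrays of low hybridization control signal (2 against 2) KRT9 differed by 2.22, and between the 2 high arrays by 2.25. KRT23 differed by 2.43 ± 0.65 (adjusted p = 0.501), and by 1.73 and 3.84 within the same array sets. KRT2, an epidermal type II keratin, differed by 0.63 ± 0.26 (adjusted p = 0.813).

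In lymph nodes the groups did not overlap for 6 keratins, all higher with estrogen (KRT9, KRT23, KRT2, KRT72, KRT17P5 and KRT19P2), which is 12.5% against 4.47% of all genes higher and 5.46% lower. A difference above 0 was seen in 35 of 48 keratins, against 47.8% of all genes. The class medians were 0.16 for luminal, 0.23 for basal, 0.26 for squamous and 0.05 for hair keratins, beside −0.02 for all genes. The lowest was KRT24, a squamous type I keratin, with −0.64 ± 0.34 (adjusted p = 0.91). The lymph node of mouse 11 stood apart in these values and read over 1 above both others of its group for 8 of 48 keratins, against 4.35% of all genes. KRT13 and KRT16 differed by 3.91 and 3.61 between the 2 arrays of high hybridization control signal, which include mouse 11, but by −0.12 and 0.45 among the other 4. On that same array the squamous cell markers had a list mean of 6.59, against 4.87 and 5.22 in its group (15 of 18 measured passed the filter, and FLG, DSG1 and DSC1 fell below it). The part of squamous differentiation or of the array in these keratin values was not tested.

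Primary tumors were compared in the same way, 2 arrays against 2. KRT10 fell by 1.67 with estrogen relative to withdrawal (−1.67 ± 0.35, adjusted p = 0.0277), from a mean of 10.17 ± 0.14 (SD, n = 2) to 8.51 ± 0.54 (SD, n = 2). This was 1 keratin called of 48, against 7.82% of all genes (0.879% higher and 6.94% lower), so the share of keratins called, 2.08%, was not above the background. Fewer tumor cells captured and less RNA per cell cannot be told apart in such values. After quantile normalization the KRT10 difference was −0.22 (adjusted p = 0.722), and adjusted p-values ran from 0.0063 to 0.722 over the alternatives. Without the withdrawn lymph node of mouse 10 the difference was −1.68 (adjusted p = 0.0585). Leaving out the estrogen tumor of mouse 11 gave −1.28 (adjusted p = 0.133), and leaving out the withdrawn tumor of mouse 10 or 19 gave −1.80 and −1.58 (adjusted p = 0.0961 and 0.136). The hybridization control signal was low in both estrogen tumors and high in both withdrawn tumors, so it cannot be told apart from pellet state within this site.

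KRT18 had a difference of −1.46 ± 0.45 that was not called (adjusted p = 0.0831), and its sign turned after quantile normalization (0.10). By their ratio to the error the 3 highest keratins were KRT9, the pseudogene KRT18P33 and KRT5. KRT9 differed by 1.26 ± 0.36 (adjusted p = 0.0681), KRT18P33 by 1.35 ± 0.47 (adjusted p = 0.114, a direction shared by 2 of its 4 probe sets) and KRT5 by 2.68 ± 1.10 (adjusted p = 0.163). KRT9 was called without the lymph node of mouse 11 or 14 (adjusted p = 0.0349 and 0.0313), and KRT5 without that of mouse 11 (adjusted p = 0.0418). With the hybridization control mean as a covariate KRT9 differed by 0.60 (adjusted p = 0.197). KRT5 then differed by 4.42 (adjusted p = 0.0137) and KRT18P33 by 2.12 (adjusted p = 0.00497). Over all alternatives the adjusted p-values ran from 0.0313 to 0.528 for KRT9, from 0.0137 to 0.787 for KRT5 and from 0.0213 to 0.914 for KRT18. KRT16 and KRT13 had larger differences with larger errors, 3.02 ± 1.27 and 2.98 ± 1.34 (adjusted p = 0.175 and 0.202). KRT16 was called without the lymph node of mouse 11 (3.03, adjusted p = 0.0104), and over all alternatives the adjusted p-values ran from 0.00718 to 0.788 for KRT16 and from 0.0295 to 0.644 for KRT13.

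Counted over the family, 42 of 48 keratins had a difference above 0 in primary tumors, against 44.1% of all genes. The median keratin difference was 0.36 beside −0.10 for all genes, and 0.38 beside 0.06 after quantile normalization. Of the 48 keratins, 30 had a mean below 4, where the median over all genes was 0.11. The groups did not overlap for 27 keratins higher with estrogen and 2 lower (KRT10 and KRT18), against 22.6% and 38.3% of all genes. After quantile normalization these counts were 26 and 0, against 31.1% and 26.8% of all genes. By class the medians were −0.16 for luminal, 0.81 for basal, 0.42 for squamous and 0.32 for hair keratins, and after quantile normalization 0.31, 1.43, 0.50 and 0.35, so the luminal median changed sign with the scaling.

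The basal cell markers other than keratins had list means of 5.15 to 5.30 in the estrogen primary tumors and 4.35 to 4.80 in the withdrawn ones (12 of 13 measured passed the filter, SNAI2 fell below it, and TP63 is not analysed here). Their median difference was 0.26, with 7 above 0 and 5 below. Only 1 of these 12 was called there, EGFR, the receptor of epidermal growth factor, which read 12.59 and 11.64 with estrogen and 6.15 and 6.33 after withdrawal (5.87 ± 0.98, adjusted p = 0.0163). The squamous cell markers had list means of 4.96 and 5.40 with estrogen and of 4.05 to 4.16 after withdrawal, and 14 of 15 differences were above 0 with none called. The one below 0, CSTA, an inhibitor of cysteine proteases in the cornified envelope, fell with estrogen by 4.37 (adjusted p = 0.0047), from 13.76 and 14.15 to 9.03 and 10.13. The part of these markers in the KRT5, KRT13 and KRT16 values was not tested.

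Whether the response to estrogen differed between the sites was tested as the lymph node difference minus the primary tumor difference. No keratin was called, against a background of 0.0116% (2 genes of 17170), and 1 keratin, KRT10, against 10.8% of all genes had an unadjusted p below 0.05. KRT10 had the highest value, 2.03 ± 0.46 (adjusted p = 0.163), which was 0.63 after quantile normalization, and it was called without the lymph node of mouse 11 (2.24, adjusted p = 0.0197; adjusted p-values ran from 0.0193 to 0.852 over the alternatives). KRT18 had 1.18 ± 0.59 (adjusted p = 0.529), which became −0.35 after quantile normalization, and KRT9 had 0.97 ± 0.48 (adjusted p = 0.518). The lowest by ratio to the error were KRT18P33 at −1.29, the inner root sheath keratin KRT25 at −0.77 and the hair keratin KRT34 at −0.47. Values were above 0 in 12 of 48 keratins, against 59.8% of all genes.

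**Figure D4:**
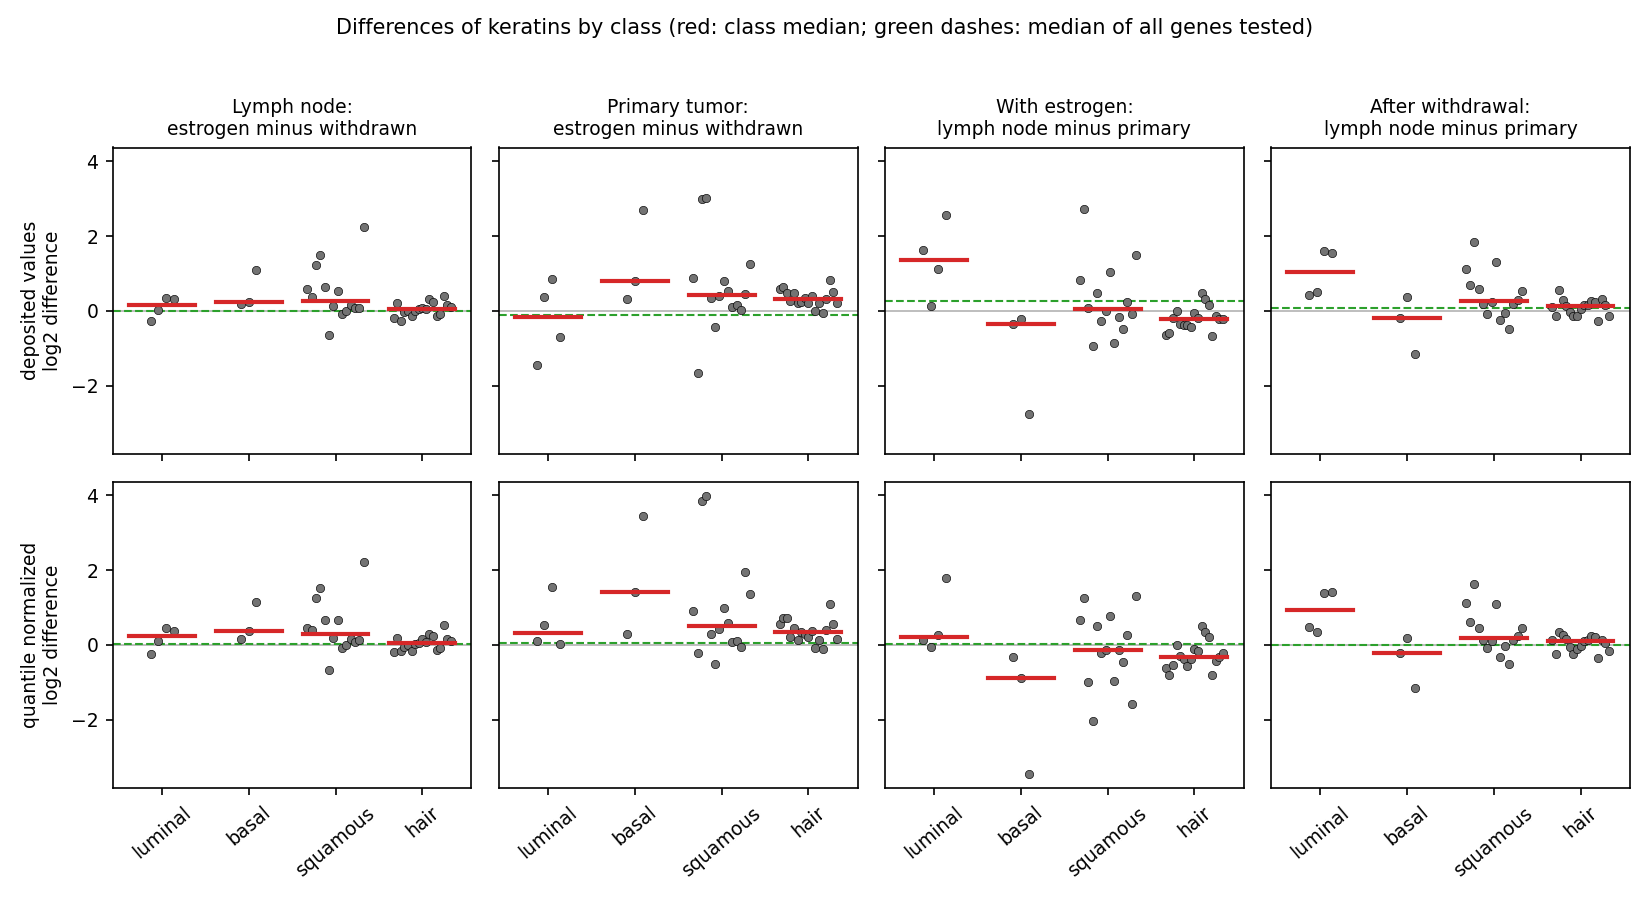
Log2 differences of single keratins (points) by class in 4 comparisons (columns), for the deposited values (top) and after quantile normalization (bottom); red bars are class medians and green dashes the median of all genes tested. With estrogen the luminal median of lymph node minus primary tumor is 1.36 for deposited values and 0.20 after quantile normalization, while KRT5 stays the lowest basal keratin in both.

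Lymph nodes and primary tumors were then compared under estrogen. KRT10, KRT9 and KRT18 were higher in the lymph nodes, 3 of 48 keratins (6.25%), against 7.81% of all genes higher, 0.949% lower and 8.76% in either direction. KRT10 differed by 2.72 ± 0.32 (adjusted p = 0.00572), KRT9 by 1.49 ± 0.34 (adjusted p = 0.0304) and KRT18 by 1.61 ± 0.42 (adjusted p = 0.0489). After quantile normalization no keratin was called, against 0.46% of all genes (13 higher and 66 lower in place of 1341 and 163). The differences were then 1.25 for KRT10 (adjusted p = 0.131), 1.31 for KRT9 (adjusted p = 0.114) and 0.13 for KRT18 (adjusted p = 0.939).

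The same mice gave both sites in 2 cases with estrogen. Within mouse 11 the lymph node exceeded the primary tumor by 2.63 for KRT10, and within mouse 14 by 2.38. For KRT18 these differences were 1.23 and 1.61. With the mouse as a fixed block, which uses these pairs only, the differences were 2.50 for KRT10, 1.62 for KRT9 and 1.42 for KRT18, and none was called (adjusted p = 0.149, 0.204 and 0.204). Among arrays of low hybridization control signal (2 against 2) they were 2.94, 1.67 and 1.95. KRT10 stayed called whichever of the 10 arrays was left out, with the highest adjusted p, 0.0444, without the primary tumor of mouse 11. Of the 10 arrays left out in turn, KRT18 was called only without the lymph node of mouse 11 (adjusted p = 0.00652), and without the primary tumor of mouse 11 its adjusted p was 0.219. KRT9 was not called without the lymph node of mouse 6 or the withdrawn one of mouse 10 (adjusted p = 0.0728 and 0.0639), nor without any 1 of the 4 primary tumors (adjusted p = 0.057 to 0.138). Over all alternatives the adjusted p-values ran from 0.000986 to 0.149 for KRT10, from 0.00154 to 0.204 for KRT9 and from 0.00652 to 0.939 for KRT18.

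Other keratins had large differences between the sites that were not called. KRT20 was 3.38 ± 1.21 higher in the lymph nodes (adjusted p = 0.133) and KRT8 2.56 ± 0.93 (adjusted p = 0.138), and KRT8 was called without the lymph node of mouse 14 (3.49, adjusted p = 0.0145, the lowest of alternatives that reached 0.494). KRT5 had −2.76 ± 1.02 (adjusted p = 0.144), with −0.10 in mouse 11 and −4.28 in mouse 14, and was called without the lymph node of mouse 11 (−3.72, adjusted p = 0.0113, the lowest of alternatives that reached 0.602). KRT18P33 had −1.29 ± 0.44 (adjusted p = 0.118) and KRT76, a keratin of oral epithelium, −0.87 ± 0.32 (adjusted p = 0.151). Of the marker lists of other cells, EGFR among the basal (−6.73), COL3A1 among the stromal (−1.90) and CKM and MYL1 among the muscle markers (−1.11 and −1.14) were lower in the lymph nodes, and CSTA among the squamous markers was higher (1.76), all with adjusted p-values from limma of 0.00679 to 0.0447; their part in the keratin values was not tested. After quantile normalization EGFR was the only one of these still called. Differences above 0 were seen in 8 of 12 basal, 6 of 15 squamous, 4 of 11 stromal and 2 of 6 muscle markers tested. Of all genes 7.81% were called higher and 0.949% lower. Of the 15 luminal cell markers 7 were called higher, and 0 after quantile normalization. The groups did not overlap for 10 keratins higher and 10 lower in the lymph nodes, against 28% and 9.98% of all genes. After quantile normalization these counts were 7 and 13, against 13.6% and 14.3%. A difference above 0 was seen in 22 of 48 keratins, against 67.6% of all genes. After quantile normalization it was 18 of 48, against 52.4%. Of the 48 keratins, 30 had a mean below 4, where the median over all genes was −0.03, against 1.875 for genes averaging over 10. The class medians were 1.36 for luminal, −0.34 for basal, 0.04 for squamous and −0.21 for hair keratins, beside 0.26 for all genes, and 0.20, −0.88, −0.13 and −0.33 after quantile normalization, beside 0.02.

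After withdrawal no keratin differed between the sites by the test, and the background was 0% (0 of 17170 genes called, 10% with an unadjusted p below 0.05, as had 1 keratin, KRT4). KRT4 was 1.31 ± 0.55 higher in lymph nodes (adjusted p = 0.477), KRT10 0.69 ± 0.32 (adjusted p = 0.53) and KRT18P44 0.53 ± 0.24 (adjusted p = 0.511). In the 2 mice with both sites the lymph node exceeded the primary tumor in KRT10 by 0.72 and 0.68. All 4 luminal keratins read higher in the lymph nodes, with KRT7 at 1.60 ± 0.79 (adjusted p = 0.552) and KRT8 at 1.55 ± 0.93 (adjusted p = 0.651). KRT7, KRT8 and the single-symbol probe set of KRT19 did so without overlap (that of KRT19 overlapped after quantile normalization). The stronger probe set annotated to both KRT19 and JUP did overlap after withdrawal. On it the lymph node array of mouse 19 read 13.33, below the 13.38 of the primary tumor array of mouse 10. Over all 48 keratins 10 were higher and 2 lower without overlap, against 20.8% and 10.2% of all genes. A difference above 0 was seen in 34 of 48 keratins, against 56.6% of all genes. The luminal median was 1.03 (0.94 after quantile normalization) beside 0.07 for all genes. KRT20 had 2.37 ± 1.21 (adjusted p = 0.574), and its differences within mice 10 and 19 were 3.25 and 0.58. The lowest were KRT78, a keratin of stratified epithelia, with −0.48 ± 0.23 (adjusted p = 0.547), KRT5 with −1.16 ± 1.02 (adjusted p = 0.798) and the companion layer keratin KRT75 with −0.27 ± 0.27 (adjusted p = 0.839).

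No hair keratin was called in any of the 5 comparisons in the main fit. In the limma fit with the hybridization control mean as a covariate, the hair keratins called included KRT25 and KRT75. KRT25 was called in the difference of responses (−1.30, adjusted p = 0.0433). KRT75 was called between the sites with estrogen (−0.78, adjusted p = 0.0222). KRT33A, a type I hair shaft keratin, read 3.87 to 5.11 on the 10 arrays, and KRT83, a type II one, read 4.05 to 5.58 with its highest value in the lymph node of mouse 11. In primary tumors 16 of 17 hair keratins had a difference above 0, against 44.1% of all genes. Genes averaging below 4 had a median difference of 0.11 there, and the 20 hair keratins had a median level of 2.88. The largest of these hair keratin differences, 0.83 ± 0.42 for KRT83, was not called (adjusted p = 0.248). Pseudogenes resemble their parent genes, and their values may include signal of these. Among all 52 members, 5 were read from probe sets whose suffix marks probes that can match other transcripts.

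Genes that work with keratins were described by lists. Desmosomes anchor keratin filaments at cell contacts, and in primary tumors 3 of 12 tested desmosome genes were called lower with estrogen (6.94% of all genes were) and none higher, with 3 differences above 0. These were DSP, the plakin that binds keratins, by 2.28, PERP, a desmosomal membrane protein, by 2.08 and PKP4, a plakophilin, by 1.69 (adjusted p = 0.0183, 0.0216 and 0.0164). With estrogen 4 of 12 were called higher in lymph nodes than in primary tumors (7.81% of all genes were), DSP (1.92), PKP4 (1.87), PERP (2.78) and PPL, or periplakin (1.69). Of 13 keratin-binding partners 2 fell in primary tumors with estrogen (YWHAZ by 2.45 and HSPA8 by 1.87) and 5 were higher in lymph nodes with estrogen (SFN, YWHAZ, HSPB1, HSPA8 and PPL), beside the same 6.94% and 7.81% of all genes. Of 16 epithelial transcription regulators GATA3 (−2.70) and TFAP2A (−2.45) fell in primary tumors, and KLF5 (3.18) and GATA3 (1.56) were higher in lymph nodes. No gene of these lists and no keratin was called in primary tumors after quantile normalization (1.34% of all genes were), nor between the sites with estrogen, where DSP differed by 0.12. None of the 6 hemidesmosome genes or the 15 other intermediate filament genes tested was called in any comparison, and no gene of the 5 lists was called in the other 3 comparisons. KLF5 apart, the genes of these lists that were called averaged over 7 on the 10 arrays, a level at which most genes read lower on the estrogen primary tumor arrays.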

How the data were processed

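The 10 arrays were human Affymetrix arrays, and the deposited log2 values came from RMA and Partek, per the submitters' processing notes, whose versions and settings are not given in the sources used here. The labels' organism field names the host mouse. Probe sets were named from the platform annotation: 44532 had 1 symbol, 1492 several and 15273 none, and 62 were control probe sets. Each gene was read from its single-symbol probe set with the highest mean, and 2386 genes below 2.311 were left out.

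Tests used limma 3.58.1 in R 4.3.3 on the log2 values, with 4 group means in 1 fit, mouse as a random block (consensus correlation −0.0415), and Benjamini-Hochberg adjustment over 17170 genes. The fit had 6 residual and 2.66 prior degrees of freedom and was tested on simulated data. Replicates were separate mice, and groups of 2 or 3 arrays limit the precision. The pairing of sites comes from the animal numbers. Deviations from group means correlated at 0.176, −0.208, −0.21 and 0.0831 within mice 10, 11, 14 and 19. The named keratins were the luminal and basal ones, any called keratin, in each comparison the 3 keratins at either end of the moderated t, and those at or above the 75th percentile. Up to 3 genes per partner list and comparison were named, and further called ones after their values were seen. Keratins and lists were chosen with earlier results of these data known. Alternatives were quantile normalization, other filters, blocks, probe set means, eBayes settings, covariates and leaving out each array. The GAPDH covariate was chosen after seeing the data.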

Additional observations from a re-analysis of the deposited data

How the results depend on the processing

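Of 460 alternative values of the called counts and class medians, 35 moved. A called count moved if it changed by more than a set ratio, or from or to none. A class median moved if it shifted by more than its SD within groups. This limit was 0.883 for luminal, 1.011 for basal, 0.286 for squamous and 0.168 for hair keratins. The luminal median in primary tumors thus did not count, although it went from −0.16 to 0.31 after quantile normalization. With the hybridization control mean as a covariate 1 keratin was called in lymph nodes (KRT9), 8 in primary tumors, 4 in the difference of responses and 9 between sites with estrogen, and the hair medians were 0.61 in primary tumors and −0.54 in the difference of responses. Quantile normalization left 0 called in primary tumors and 0 between sites with estrogen, where the luminal median was 0.20. With the GAPDH 3′ minus 5′ difference as a covariate, an alternative chosen after seeing the data, 0 were called in primary tumors and 1 between sites with estrogen (KRT10), and the squamous medians were 0.15 in the difference of responses and −0.03 between sites after withdrawal. With the mouse as a fixed replicate block 0 were called between sites with estrogen, and without a block the counts were 0, 1, 0, 3 and 0 in the 5 comparisons in the order of the report, so that pairing changed no other count. The fixed block could not be fitted for the pellet comparisons, since no mouse had both pellet states.

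Leaving out 1 array gave 0 to 7 called in primary tumors (7 with the estrogen lymph node of mouse 11 left out, 2 with that of mouse 14, and 0 with the withdrawn lymph node of mouse 10, the estrogen tumor of mouse 11 or either withdrawn tumor), 0 to 1 in the difference of responses and 1 to 6 between sites with estrogen. The class medians that moved with 1 array left out ranged from 0.15 to 0.54 (hair, primary tumors), from −0.50 to 0.10 (squamous, difference of responses), from −0.49 to −0.14 (hair, difference of responses), from −0.41 to −0.056 (hair, sites with estrogen) and from −0.089 to 0.20 (hair, sites after withdrawal). Luminal and basal medians are not in this list, but their limits were wider (0.883 and 1.011). Their absence therefore does not show that they were stable.

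Of 622 alternative values of selected keratins, mainly those called or at either end of the moderated t in a comparison, 7 changed sign. Other keratins also changed sign, such as KRT8 in primary tumors (−0.70, and 0.015 after quantile normalization). KRT18 became 0.10 in primary tumors and −0.35 in the difference of responses after quantile normalization. KRT24 in primary tumors was 0.23 with the hybridization covariate and ran from −0.89 to 0.009 with 1 array left out, turning without the withdrawn tumor of mouse 10. KRT5 between sites after withdrawal was 0.23 with that covariate and ran from −2.42 to 0.065, turning without the same tumor. KRT75 there was 0.078 with the covariate. The cause of these changes was not tested. Signals near the array medians are close to background, which limits what the hair keratins can show.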

Other observations

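The other intermediate filament genes were described beside the keratins. VIM, the vimentin of mesenchymal cells, read 2.14 to 2.56 on all 10 arrays and differed by −0.06 and −0.10 between pellet states in lymph nodes and primary tumors. LMNB1, a lamin of the nuclear envelope, read 3.56 on the withdrawn primary tumor array of mouse 19 and 6.21 on that of mouse 10, a gap as wide as those of KRT5 (3.06 and 5.64) and KRT8 (5.73 and 7.79) on the same arrays. On the array of mouse 19, 15 of 48 keratins had their lowest value of the 10 arrays, against 13.9% of all genes, and none had its highest. The estrogen primary tumor of mouse 14 and the estrogen lymph node of mouse 11 each held the highest value of 12 keratins (25%), against 10.5% and 18.4% of all genes.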
